A study of Mus musculus with 17 samples.

Results

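The Hox genes were described here across tumours grown from ID8, a mouse cancer line that the labels place in the ovarian surface. They were taken as every gene whose symbol is Hox, a cluster letter from a to d and a paralogue number, which gave 39 of the 43629 genes in the deposited count table. The Hoxa cluster held 11 of them on chromosome 6, Hoxb 10 on chromosome 11, Hoxc 9 on chromosome 15 and Hoxd 9 on chromosome 2. Of the 39, 35 passed the filter on low counts and were tested, and Hoxb13, Hoxd1, Hoxd12 and Hoxd13 did not.

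Total RNA was sequenced from 17 libraries in 8 groups. They were 2 subcutaneous tumours, 3 libraries of a second ascites tap, 3 of a first tap, 3 solid tumours on the intestine, 3 orthotopic tumours on the ovary, 1 library of the untreated cultured line, and 1 each of healthy C57BL6 ovary and intestine. All tumours and taps came from the same injected line, put under the skin or into the ovarian bursa, and the taps and intestinal tumours followed from the ovarian injection. The study asked how ID8 cells change with the tissue in which they grow. The labels describe subcutaneous tumours as from the scruff, while the treatment protocol names the flanks, and no label gives an animal's age or ties samples to animals.

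Hox genes encode homeodomain transcription factors that give cells their place along the head-to-tail axis. Within a cluster the genes lie in the order in which they act, with low paralogue numbers anterior and high numbers posterior, and adult stroma and muscle keep the code of the region they came from. In the mouse, Hoxa9, Hoxa10, Hoxa11 and Hoxa13 pattern successive parts of the Müllerian tract, which forms the oviduct, uterus and upper vagina, whereas the ovarian surface derives from coelomic epithelium. Hox clusters are silenced by Polycomb complexes and opened by retinoic acid and by Cdx proteins during development.

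The windows before the start sites of a pair of Hoxb members nearly without reads in the cultured line and a pair of members with clear levels there are shown first, because the results turn on that difference. Each is the 250 bases before the start site in RefSeq on build GRCm38.p6, read 5′ to 3′ on the gene's strand, with matches to TTTAT on either strand in capitals. TTTAT is the core bound by Cdx proteins and posterior Hox proteins.
Hoxb4, chr11:96318017-96318266, plus strand: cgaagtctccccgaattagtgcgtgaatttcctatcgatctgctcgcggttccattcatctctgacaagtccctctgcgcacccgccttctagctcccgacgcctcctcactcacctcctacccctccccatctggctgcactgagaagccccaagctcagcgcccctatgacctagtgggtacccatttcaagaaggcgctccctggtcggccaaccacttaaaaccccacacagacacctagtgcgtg
Hoxb8, chr11:96281655-96281904, plus strand: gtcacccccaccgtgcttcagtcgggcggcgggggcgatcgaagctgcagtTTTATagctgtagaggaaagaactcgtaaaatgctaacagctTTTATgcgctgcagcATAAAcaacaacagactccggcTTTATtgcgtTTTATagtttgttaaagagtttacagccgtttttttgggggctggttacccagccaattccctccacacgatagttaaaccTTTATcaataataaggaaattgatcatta
Hoxa7, chr6:52218574-52218823, minus strand: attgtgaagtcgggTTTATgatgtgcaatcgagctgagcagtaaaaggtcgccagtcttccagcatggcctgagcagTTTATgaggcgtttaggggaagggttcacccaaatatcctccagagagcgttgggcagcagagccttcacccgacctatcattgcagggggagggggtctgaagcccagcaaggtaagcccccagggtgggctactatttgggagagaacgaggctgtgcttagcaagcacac
Hoxd8, chr2:74704365-74704614, plus strand: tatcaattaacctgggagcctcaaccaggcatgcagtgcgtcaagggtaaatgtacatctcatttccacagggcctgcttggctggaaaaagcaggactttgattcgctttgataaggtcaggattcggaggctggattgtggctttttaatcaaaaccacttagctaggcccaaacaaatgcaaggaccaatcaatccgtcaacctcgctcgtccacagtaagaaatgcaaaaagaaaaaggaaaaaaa
Hoxb8 held 6 matches to TTTAT, the most of any Hox window, Hoxa7 held 2, and Hoxb4 and Hoxd8 held 0. The only other Hoxb window, that of Hoxb1, also held 0, and Hoxb5 and Hoxb6 had no window to search. A TTTAT match on either strand stood in 9 of 24 windows of 22 matched Hox genes and in 37.3% of all 32851 promoter windows of that length. The Hox and Pbx pair site TGATTNAT, searched on both strands and able to overlap TTTAT, stood in 2 of the 24 Hox windows, against 2.82% of all windows. The dinucleotide CG occurred 14 times before Hoxb4, 12 before Hoxb8, 7 before Hoxa7 and 6 before Hoxd8, and its median was 12.5 in the Hox windows and 6 in all windows.

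Total counts ran from 12031221 in intestinal tumour 1 to 38902048 in orthotopic tumour 1. Subcutaneous tumour 3, first tap 3 and second tap 1 had a count for 33393, 32846 and 32775 genes, and the other 14 libraries for 21157 to 26838. Hoxb1, a hindbrain gene, had all of its 31 reads in those 3 libraries, and so did 97.7% of the Hoxd13 reads, 89.6% of the Hoxd1 reads, 84.9% of the Hoxd12 reads and 56.2% of the Hoxb13 reads. Defining markers of the labelled tissues were present, with 8 of 8 intestinal epithelium genes detected in healthy intestine at a sum of 15200 CPM, and Wt1, an ovarian surface gene, at 577 CPM in the cultured line. CPM is counts per 1000000 of a library's total over the tested genes, that total multiplied by its trimmed-mean factor. Where levels of different genes are set side by side they are CPM per kilobase of exon (RPKM), with exon lengths from GENCODE for GRCm38.

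**Figure D1:**
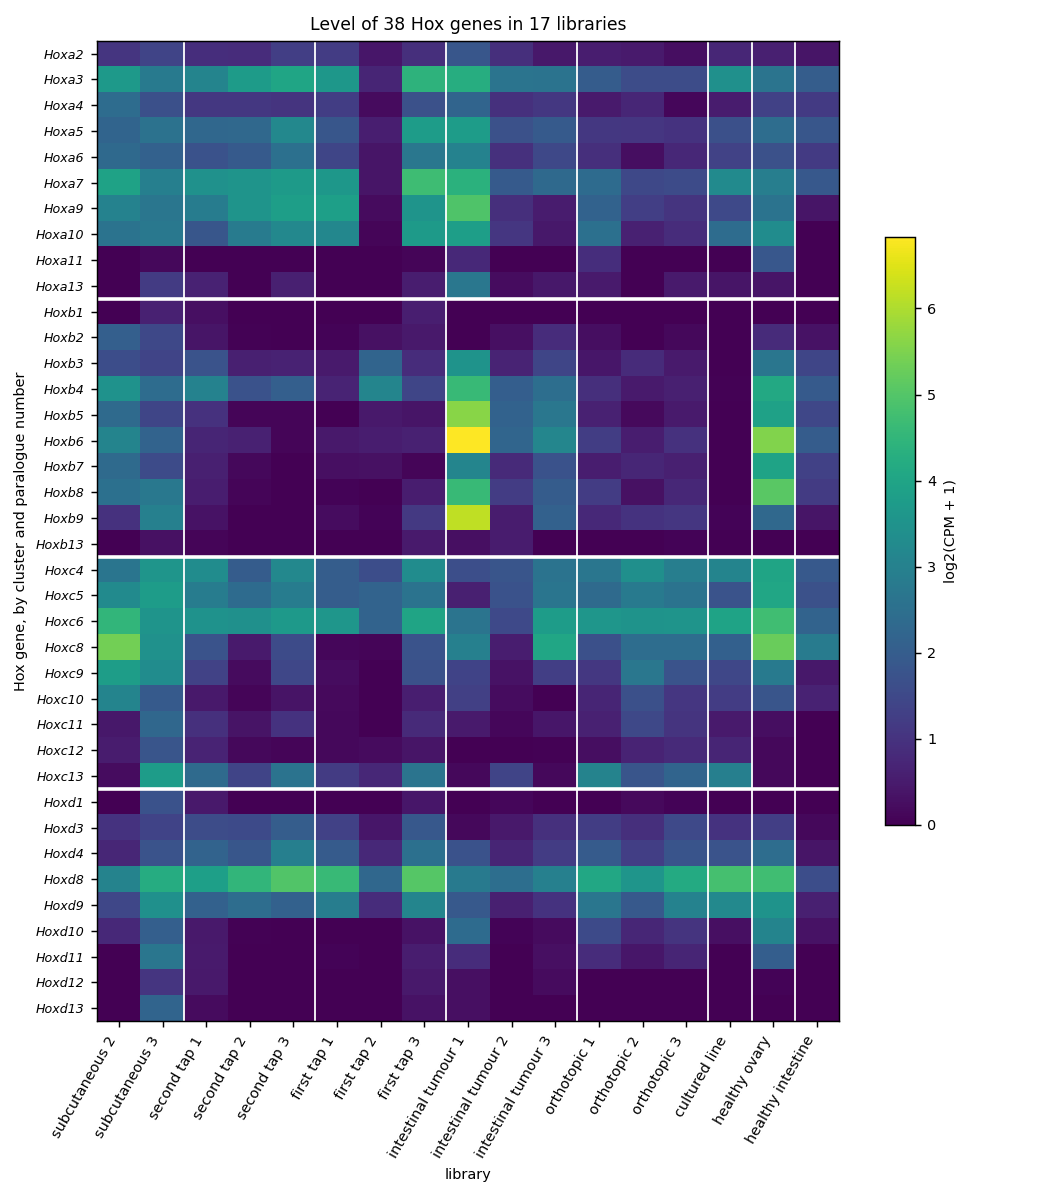
Level of 38 Hox genes, as log2(CPM + 1) by colour, in rows by cluster and paralogue number and in columns by library, with white lines between clusters and groups. The cultured line is dark across the whole Hoxb block, and intestinal tumour 1 and healthy ovary are bright there.

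The cultured line expressed Hoxa, Hoxc and Hoxd members and next to no Hoxb. Its reads numbered 1322 over Hoxa, 3 over Hoxb, 1458 over Hoxc and 1478 over Hoxd. Of the Hoxb reads, 1 fell on Hoxb4 and 2 on Hoxb9, the other 8 Hoxb members had no read, and a count of 0 in this library allows a level of up to 0.0795 CPM. In all, 13 of 39 members had no read in the line. With 1 library there was no replicate check.

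Summed per kilobase, Hoxb made up 0.0715% of the Hox level in the line, against 44.5% in healthy ovary and 29.7% in healthy intestine. The same share was 20.0% and 14.8% in subcutaneous tumours, 11.3%, 3.67% and 2.46% in the second tap, 1.98%, 36.2% and 3.13% in the first tap, 70.2%, 32.8% and 31.7% in intestinal tumours, and 7.25%, 5.39% and 6.42% in orthotopic tumours. The line therefore stood lowest of the 17 libraries and intestinal tumour 1 highest, and first tap 2 stood apart from the other taps.

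**Figure D2:**
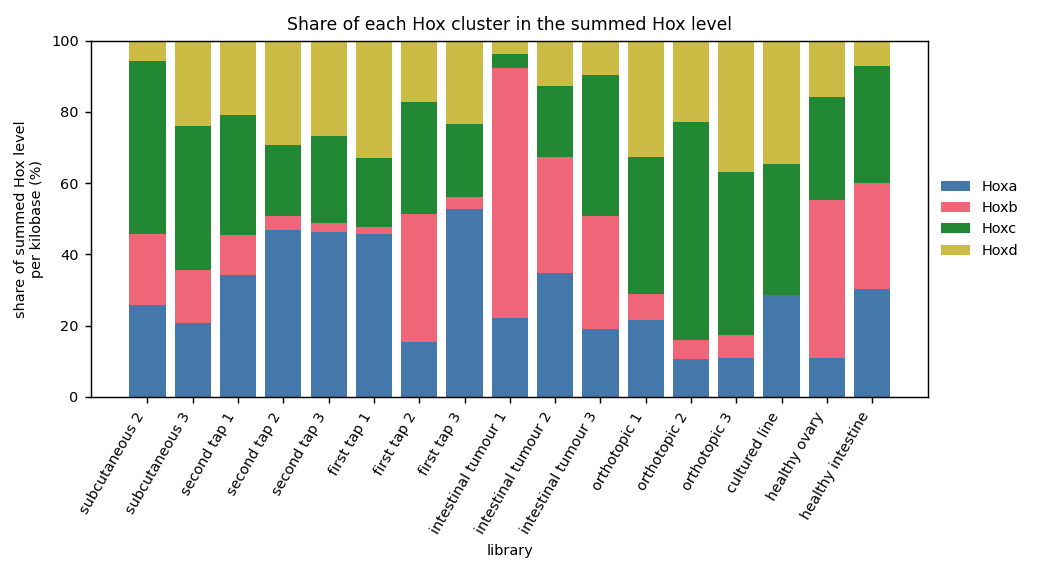
Share of each Hox cluster, in percent, in the summed Hox level per kilobase of each library, as stacked bars by library. The Hoxb share is 0.0715% in the cultured line, 44.5% in healthy ovary and 70.2% in intestinal tumour 1.

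Per kilobase the leading members in the line were Hoxd8 at 9.93 RPKM, Hoxc6 at 6.11, Hoxd9 at 3.91, Hoxa7 at 3.02 and Hoxc4 at 2.90. Members with paralogue numbers 5 to 8 carried 55.3% of the line's Hox level, numbers 9 to 13 carried 25.0% and numbers 1 to 4 carried 19.7%. In healthy ovary these shares were 71.6%, 15.1% and 13.3%, and in healthy intestine 69.6%, 5.62% and 24.8%. The middle paralogues led in all 3 samples, and the posterior share was lowest in healthy intestine.

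Hoxd8, a middle paralogue of the Hoxd cluster, had 7.34 and 17.9 CPM in subcutaneous tumours, 13.4, 21.6 and 30.3 in the second tap, 23.1, 3.86 and 31.8 in the first tap, 5.88, 4.58 and 6.80 in intestinal tumours, 16.2, 10.9 and 17.2 in orthotopic tumours, 27.3 in the line, 25.8 in healthy ovary and 2.05 in healthy intestine. It was the leading member per kilobase in 9 of the 15 tumour, ascites and line libraries. All 3 intestinal tumours stood below all 3 orthotopic tumours, and the difference of -1.36 ± 0.62 (log2 fold change ± SE) did not pass (adjusted p = 0.156).

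Hoxc6, which takes part in thoracic patterning and mammary development, had 21.4 and 10.6 CPM in subcutaneous tumours, 10.1, 9.75 and 11.7 in the second tap, 11, 3.48 and 14.8 in the first tap, 5.14, 1.87 and 12.7 in intestinal tumours, 11, 10.3 and 10.7 in orthotopic tumours, 14.7 in the line, 25.6 in healthy ovary and 3.54 in healthy intestine. The orthotopic tumours lay close together, and the intestinal tumours spread to both sides of them. Hoxc4, a more anterior member of the cluster, had 5.34 and 10.9 CPM in subcutaneous tumours, 9.03, 2.97 and 8.04 in the second tap, 3.01, 2.04 and 8.95 in the first tap, 2.1, 2.50 and 5.12 in intestinal tumours, 5.37, 9.54 and 6.61 in orthotopic tumours, 7.44 in the line, 14.8 in healthy ovary and 2.77 in healthy intestine. All 3 intestinal tumours were below all 3 orthotopic ones, by -1.13 ± 0.63 (adjusted p = 0.241).

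Hoxd9, which acts with its paralogues in forelimb and lumbosacral patterning, had 1.74 and 9.82 CPM in subcutaneous tumours, 3.35, 4.4 and 3.34 in the second tap, 6.38, 0.831 and 7.69 in the first tap, 2.73, 0.509 and 0.996 in intestinal tumours, 5.45, 2.73 and 7.24 in orthotopic tumours, 8.34 in the line, 10.3 in healthy ovary and 0.513 in healthy intestine. Intestinal tumour 1 equalled the lowest orthotopic tumour to 3 digits, the other 2 were below it, and the difference did not pass (-1.91 ± 0.88, adjusted p = 0.158). Hoxc13, a regulator of hair keratins, had 0.174 and 12.6 CPM in subcutaneous tumours, 4.14, 1.63 and 5.03 in the second tap, 1.26, 0.680 and 5.16 in the first tap, 0.105, 1.66 and 0.107 in intestinal tumours, 7.29, 2.46 and 3.58 in orthotopic tumours, 6.78 in the line, 0.0994 in healthy ovary and 0 in healthy intestine. It was present in the line and orthotopic tumours and nearly absent from both healthy tissues, which held 4 reads in all, and its difference between intestinal and orthotopic tumours did not pass (-2.77 ± 1.36, adjusted p = 0.184).

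Hoxa3, required for the thymus and parathyroid, had 11.8 and 6.04 CPM in subcutaneous tumours, 7.52, 12.4 and 15.2 in the second tap, 11.2, 0.643 and 20.5 in the first tap, 18.0, 5.18 and 5.09 in intestinal tumours, 2.96, 2.03 and 2.03 in orthotopic tumours, 9.80 in the line, 5.22 in healthy ovary and 3.03 in healthy intestine. First tap 2 was the lowest of the 17 libraries, and every other ascites library was above every orthotopic tumour.

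Hoxa7, which patterns the thoracic region, had 14.2 and 6.72 CPM in subcutaneous tumours, 9.89, 10.6 and 12.2 in the second tap, 11.3, 0.302 and 25.1 in the first tap, 19.6, 2.84 and 4.06 in intestinal tumours, 4.23, 1.80 and 1.97 in orthotopic tumours, 8.69 in the line, 6.58 in healthy ovary and 2.67 in healthy intestine. Again first tap 2 was lowest and the other ascites libraries were above the orthotopic tumours. By the annotation, 25.4% of the Hoxa3 exon bases and 20.4% of the Hoxa7 ones overlap exons on the opposite strand, and the sources used here do not say whether counting used strand, so reads of these genes and of their antisense partners cannot be told apart.

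The posterior Hoxa genes of the Müllerian tract, described after their values were seen, were not uniform in the line. Hoxa9, the oviduct member, had 1.85 CPM and Hoxa10, the uterine member, 4.37 CPM there, whereas Hoxa11 had no read and Hoxa13 had 12 reads at 0.318 CPM. In healthy ovary Hoxa9 had 5.09, Hoxa10 9.07, Hoxa11 2.63 and Hoxa13 0.298 CPM, beside Müllerian epithelium markers that summed to 1560 CPM there, against 6.33 CPM in the line. Hoxa11 shares 35.0% of its exon bases with an antisense gene and is uncertain for that reason.

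Hoxb genes were low in orthotopic tumours beside healthy ovary, but no Hox gene passed in that comparison. Orthotopic tumours had between 0 and 1.35 CPM for every Hoxb member. Hoxb6, a lateral mesoderm gene, had 1.35, 0.465 and 0.974 CPM in orthotopic tumours, against 45.4 CPM in healthy ovary (-5.60 ± 1.35, adjusted p = 0.099). Hoxb4, known for its role in blood stem cells, had 0.908, 0.399 and 0.526 CPM in orthotopic tumours, against 16.3 CPM in healthy ovary (-4.72 ± 1.22, adjusted p = 0.127).

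With edgeR, 0 of 35 passed in either direction between orthotopic tumours and healthy ovary, where 0.6% of all genes did. At an unadjusted p under 0.05 there were 6, all Hoxb, where 11.2% of all genes reached that level, and DESeq2 called 3 of 32, Hoxb4, Hoxb6 and Hoxb7, all lower in orthotopic tumours, where it called 4% of all genes. The median difference was -4.72 over the 9 Hoxb members, -1.37 over all 35, or -1.48 without Hoxb1, which had no read in either group, and -0.07 over all genes. Granulosa and steroidogenic markers summed to 263, 243 and 427 CPM in orthotopic tumours, against 1690 CPM in the ovary, of which Cyp11a1 made 1440 CPM. Within that list Star went the other way, at 213, 187 and 388 CPM in orthotopic tumours, against 79.7 CPM in the ovary. Foxl2 had 26.6, 38.4 and 11.9 CPM, against 23.1 CPM, and the other members were lower in orthotopic tumours. Smooth muscle markers summed to 164, 114 and 79.2 CPM in orthotopic tumours, against 1170 CPM in the ovary. The part of these host cells in the Hoxb difference was not tested, and in such bulk samples fewer cells of a type and less RNA per cell cannot be told apart. Healthy ovary was 1 library, so that the fit assumed it to vary like the replicated groups.

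Beside the cultured line, orthotopic tumours had higher levels of 8 of 9 tested Hoxb members and lower levels of 9 of 11 Hoxa members, with no gene past the threshold. Of all 22671 genes tested, 12902 were higher. The line had 0 to 2 reads of each Hoxb member, so nearly any orthotopic read made a Hoxb change positive, and the Hoxb count is no test. The line had no read of Hoxb6, which averaged 0.930 ± 0.444 CPM (SD, n = 3) in orthotopic tumours and was at least 11.7-fold higher there. Hoxb7, with 0.467, 0.665 and 0.526 CPM in orthotopic tumours and no read in the line, was at least 6.96-fold higher (adjusted p = 0.156). Hoxb4 had 67 reads in the orthotopic tumours and 1 in the line. The ratio of its mean orthotopic level to the line's was 23.1. An exact 95% counting interval, for the line's 1 read alone, ran from 4.13 to 911.

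By edgeR 0 of 35 passed between orthotopic tumours and the line, where 3.2% of all genes did, 4 were under an unadjusted p of 0.05, where 20.9% of all genes were, and DESeq2 called 4 of 32, Hoxb3, Hoxb6, Hoxb7 and Hoxb8, all higher in orthotopic tumours, where it called 20% of all genes. The Hoxa median was -0.99 and the Hoxc median -0.02, while the median of all genes was 0.24, or 0.09 with genes at 0 set at their bound. Hoxa3 had 2.34 ± 0.538 CPM (SD, n = 3) in orthotopic tumours, against 9.80 CPM in the line (-2.07 ± 1.11, adjusted p = 0.319). Endothelial markers summed to 438, 402 and 260 CPM in orthotopic tumours, against 0.980 CPM in the line, and the part of host cells in the Hoxb reads was not tested.

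Of 35 tested Hox genes, 3 Hoxb members rose and 1, Hoxc12, fell in intestinal beside orthotopic tumours. Of all genes 10.4% rose and 5.13% fell, so neither count was above the share of all genes. Hoxb6 had 113, 3.73 and 7.72 CPM in intestinal tumours, against 1.35, 0.465 and 0.974 CPM in orthotopic tumours. Hoxb5, which acts in the enteric nervous system and in lung, had 48.2, 3.40 and 5.59 CPM in intestinal tumours, against 0.545, 0.133 and 0.421 CPM in orthotopic tumours. Hoxb4 had 23.1, 3.10 and 4.52 CPM in intestinal tumours, against 0.908, 0.399 and 0.526 CPM in orthotopic tumours. For all 3 genes the groups did not overlap, and intestinal tumour 1 was several times above the other 2.

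The log2 fold change of Hoxb6 was 5.47 ± 1.22 (adjusted p = 0.0131), that of Hoxb5 was 5.67 ± 1.5 (adjusted p = 0.0259) and that of Hoxb4 was 4.04 ± 1.06 (adjusted p = 0.025). Hoxc12, a posterior gene of the Hoxc cluster, had 0, 0 and 0.0356 CPM in intestinal tumours, against 0.182, 0.598 and 0.763 CPM in orthotopic tumours, or 1 read against 54. Over reads pooled within each group, its level was 31-fold lower in intestinal tumours, with an exact 95% counting interval of 5.33 to 1250. Its fitted change was -4.72 ± 1.39 (adjusted p = 0.0384).

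In the libraries outside that comparison, Hoxb6 had 7.51 and 3.53 CPM in subcutaneous tumours, 0.622, 0.543 and 0.0735 in the second tap, 0.383, 0.454 and 0.535 in the first tap, 0 in the line, 45.4 in healthy ovary and 2.98 in healthy intestine. Hoxb5 had 4.17 and 1.67 CPM in subcutaneous tumours, 0.947, 0.0572 and 0.0735 in the second tap, 0, 0.378 and 0.306 in the first tap, 0 in the line, 14.1 in healthy ovary and 1.75 in healthy intestine. Hoxb4 had 10.2 and 4.32 CPM in subcutaneous tumours, 7.11, 2.29 and 3.16 in the second tap, 0.602, 7.67 and 1.68 in the first tap, 0.0265 in the line, 16.3 in healthy ovary and 2.82 in healthy intestine. Each of the 3 genes was above every orthotopic tumour in both subcutaneous tumours, and each had 0 or 1 read in the line. Hoxc12 had 0.434 and 2.50 CPM in subcutaneous tumours, 0.592, 0.114 and 0.0735 in the second tap, 0.110, 0.151 and 0.306 in the first tap, 0.636 in the line, 0.0994 in healthy ovary and 0 in healthy intestine.

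In all, 3 of 35 Hox genes passed as higher, where 10.4% of all genes did, and 1 passed as lower, where 5.13% did. At an unadjusted p under 0.05 there were 14, where 31.6% of all genes were. DESeq2 called 11 of 34, of which 10 were higher, all of them in Hoxa or Hoxb, and the 1 lower was Hoxc12, where it called 27.6% of all genes. By cluster, 8 of 9 Hoxb members had a positive fold change, with a median of 3.61, or 3.83 without Hoxb1, which had no read in either group, and 9 of 11 Hoxa members, with a median of 2.00. Against this, 1 of 9 Hoxc members and 1 of 6 Hoxd members were positive, with medians of -1.40 and -1.14, and the median of all genes was 0.06. The groups did not overlap for 9 members that were higher and 5 that were lower, where 24.4% and 20.5% of all genes did not.

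**Figure D3:**
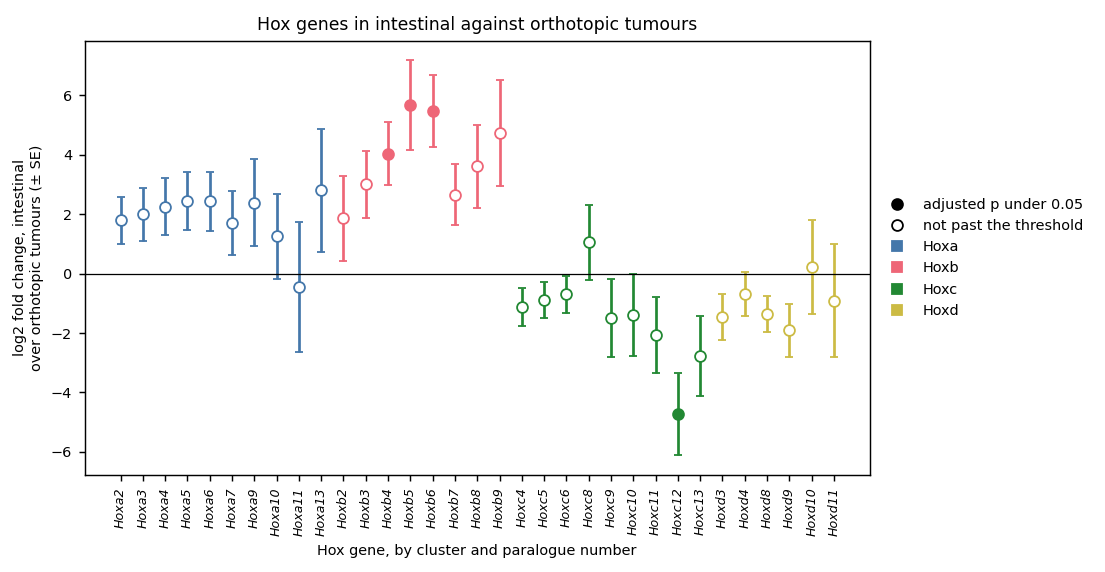
Log2 fold change of intestinal over orthotopic tumours for 33 tested Hox genes with a read in either group, by cluster and paralogue number, with bars of 1 SE and filled points for an adjusted p under 0.05. Hoxb points lie above 0, most Hoxc and Hoxd points lie below it, and the filled points are Hoxb4, Hoxb5, Hoxb6 and Hoxc12.

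Among the Hoxb members that did not pass, Hoxb9, singled out after its values were seen, had 72.0, 0.424 and 3.35 CPM in intestinal tumours, against 0.727, 0.997 and 1.11 CPM in orthotopic tumours (4.73 ± 1.78, adjusted p = 0.0908). The groups overlapped, since intestinal tumour 2 lay below every orthotopic tumour. Hoxb8 had 23.2, 1.32 and 2.99 CPM in intestinal tumours, against 1.3, 0.233 and 0.684 CPM in orthotopic tumours, and the lowest intestinal tumour was barely above the highest orthotopic one (3.61 ± 1.40, adjusted p = 0.1). Hoxb5os, a noncoding RNA of the same cluster, had 7.14, 0.127 and 0.783 CPM in intestinal tumours, against 0.156, 0 and 0.0263 CPM in orthotopic tumours (5.30 ± 1.70, adjusted p = 0.0534). Of the Hoxb5 exon bases, 3.59% overlap exons on the opposite strand.

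Intestinal tumour 1 was the highest of the 17 libraries for 11 of 39 members, 5 of them in Hoxb, and it had the fewest total counts. Without it the 4 fold changes were 2.58 for Hoxb6 (adjusted p = 0.057), 3.56 for Hoxb5 (adjusted p = 0.125), 2.59 for Hoxb4 (adjusted p = 0.12) and -4.52 for Hoxc12 (adjusted p = 0.108), and 0 Hox genes passed. Without orthotopic tumour 2 there were also 0, without orthotopic tumour 1 or orthotopic tumour 3 there was 1, Hoxb6, and without intestinal tumour 2 Hoxc12 did not pass (adjusted p = 0.139). Intestinal tumour 1 and orthotopic tumour 1 carry the library-name prefix S and the others SM. Within the SM libraries, 2 against 2, the changes were 2.93 for Hoxb6, 3.93 for Hoxb5, 2.98 for Hoxb4 and -4.93 for Hoxc12, with adjusted p of 0.131, 0.119, 0.116 and 0.141, and prefix S held 1 library a group.

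The intestinal tumours also carried host tissue. Intestinal epithelium markers, 8 of 8 detected, summed to 16900, 15000 and 5230 CPM in intestinal tumours, against 82.3, 144 and 62.2 CPM in orthotopic tumours and 15200 CPM in healthy intestine. Of these markers only Lgr5 went the other way, at 26.9, 9.85 and 9.61 CPM in intestinal tumours, against 75.9, 138 and 51.2 CPM in orthotopic tumours. It made up most of each orthotopic sum. Smooth muscle markers, 6 of 6 detected, summed to 1280, 1590 and 2040 CPM in intestinal tumours, against 164, 114 and 79.2 CPM in orthotopic tumours and 955 CPM in healthy intestine. A set of 6 genes, chosen after seeing the data for expression in the line and orthotopic tumours and near absence from both healthy tissues, had a median level of 2.31%, 20.3% and 58.8% of its orthotopic mean in intestinal tumours 1, 2 and 3. That set holds Pax3, Otx1, Tbx15, Klhdc8a, Zic2 and Gm13230 and stood at 188% in the line. The part of host tissue in the Hox differences was not tested.

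Beside healthy intestine, the intestinal tumours had 113, 3.73 and 7.72 CPM of Hoxb6, against 2.98 CPM in healthy intestine (3.80 ± 1.83, adjusted p = 1), and the difference was 1.03 without intestinal tumour 1. All 3 tumours were above the healthy library for 16 of 35 Hox genes, where they were for 4456 of 22671 genes. Hoxb4, Hoxb5 and Hoxb6 were among the 16, and Hoxb4 had 2.82 and Hoxb5 1.75 CPM in healthy intestine. For Hoxb4 the lowest tumour, at 3.10 CPM, was barely above the healthy library. Hoxa10 had 13.2, 1.1 and 0.356 CPM in intestinal tumours and no read in healthy intestine, at least 31.8-fold higher over the group mean, or at least 4.74-fold without intestinal tumour 1. By edgeR 0 of 35 and by DESeq2 0 of 31 passed, where 0% and 0.242% of all genes did, and 1 was under an unadjusted p of 0.05, where 2.58% of all genes were. The fold change was positive for 33 of 35, with a median of 1.71, or 1.44 with members at 0 set at their bound, against 0.02 for all genes.

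**Figure D4:**
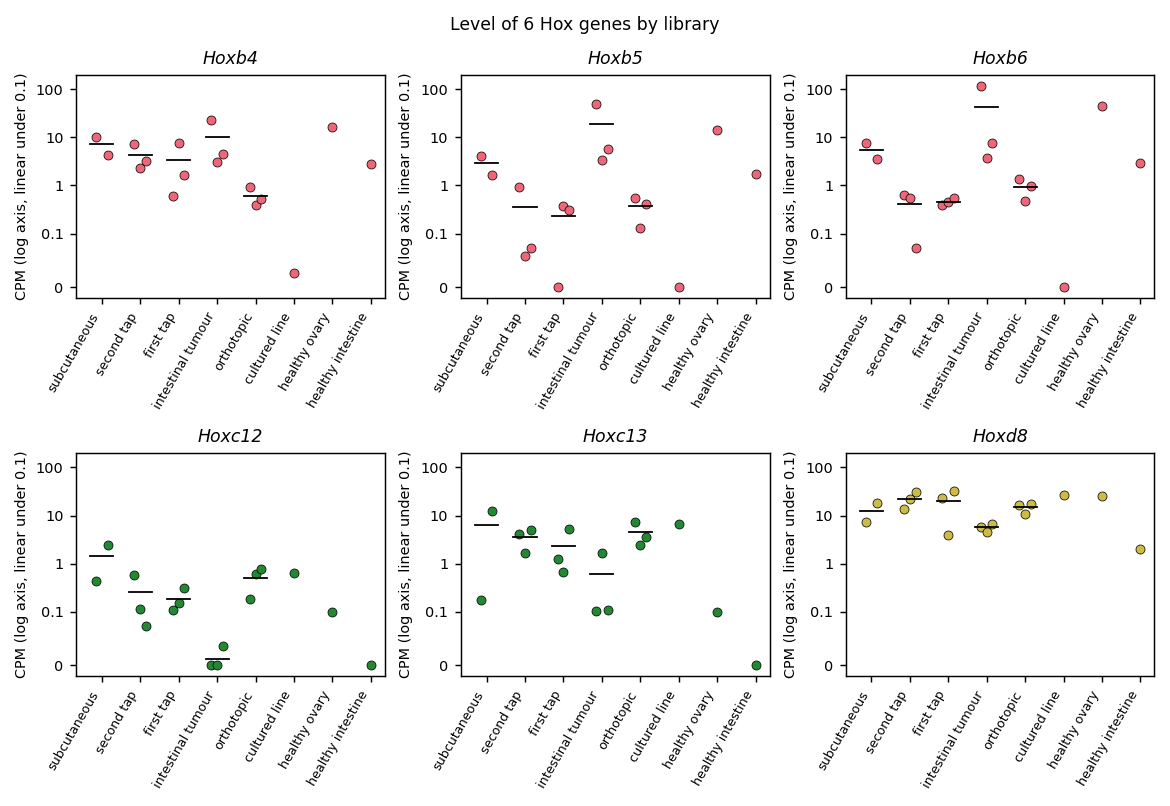
Levels in CPM of 6 Hox genes, with 1 point a library, a bar at the mean of each replicated group and a log axis that is linear under 0.1. Hoxb4, Hoxb5 and Hoxb6 points of intestinal tumours lie above those of orthotopic tumours, and the cultured line lies at or near 0 for these genes and at 27.3 CPM for Hoxd8.

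Subcutaneous tumours had positive fold changes over orthotopic tumours for 9 of 9 Hoxb and 10 of 11 Hoxa members, without a gene past the threshold. Among these 9, Hoxb1 had 11 reads, all in subcutaneous tumour 3, and none in orthotopic tumours. Hoxb4 had 10.2 and 4.32 CPM in subcutaneous tumours, against 0.908, 0.399 and 0.526 CPM in orthotopic tumours (3.56 ± 1.08, adjusted p = 0.117). Hoxa4, with 4.34 and 2.16 CPM in subcutaneous tumours, against 0.415, 0.665 and 0.0789 CPM in orthotopic tumours, differed by 3.07 ± 1.02 (adjusted p = 0.14), and 16.0% of its exon bases overlap the opposite strand. The groups did not overlap for either gene.

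With edgeR 0 of 35 passed between subcutaneous and orthotopic tumours, where 0.0132% of all genes did. Under an unadjusted p of 0.05 there were 7, where 20.7% of all genes were, and DESeq2 called 3 of 34, Hoxa4, Hoxb2 and Hoxb4, as higher, where it called 10.4% of all genes. The groups did not overlap for 20 of 35 members, all higher in subcutaneous tumours, where 23% of all genes were higher without overlap. The median was 2.81 over Hoxb, 1.93 over Hoxa, 1.08 over Hoxc, 0.04 over Hoxd and 0.25 over all genes.

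The 2 subcutaneous tumours were unlike each other. Hoxc8, singled out after its values were seen, had 40.4 CPM in tumour 2 and 10.0 CPM in tumour 3, whereas Hoxc13 had 0.174 and 12.6 CPM and Hoxd11 had 0 and 5.45 CPM. Paralogues 9 to 13 made up 18.3% of the Hox level per kilobase in tumour 2 and 39.3% in tumour 3, the largest share of the 17 libraries. The 6 line genes were at 5.75% of their orthotopic mean in tumour 2 and at 154% in tumour 3. Adipocyte markers summed to 4180 CPM in tumour 2 and 19.9 CPM in tumour 3, B cell markers to 1420 and 4.32 CPM, and keratinocyte markers to 67.0 and 751 CPM, and the part of these cells in the Hox levels was not tested.

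Beside orthotopic tumours, 10 of 11 Hoxa members had a positive fold change in the second tap and 9 of 11 in the first, while 1 of 9 and 0 of 9 Hoxc members had one, again with no gene past the threshold. Hoxa3 averaged 11.7 ± 3.89 CPM (SD, n = 3) in the second tap, against 2.34 ± 0.538 CPM (SD, n = 3) in orthotopic tumours (2.32 ± 0.90, adjusted p = 0.224). In the first tap its difference from the same orthotopic tumours was 2.2 ± 0.90 (adjusted p = 0.21), or 1.22 without first tap 3. Hoxa7 differed from orthotopic tumours by 2.03 ± 1.08 in the second tap (adjusted p = 0.376) and by 2.19 ± 1.08 in the first (adjusted p = 0.299). These comparisons share their orthotopic tumours.

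In the second tap 0 of 35 Hox genes passed by edgeR, where 1.09% of all genes did, 5 were under an unadjusted p of 0.05, where 16.3% were, and DESeq2 called 2 of 33 as higher, among them Hoxb4, where it called 9.92% of all genes. In the first tap 0 of 35 passed, where 1.58% did, 4 were under an unadjusted p of 0.05, where 18.9% were, and DESeq2 called 1 of 34 as higher, where it called 11.7% of all genes. The Hoxa median was 2.03 in the second tap and 2.04 in the first, the Hoxc median was -0.63 and -1.43, and the median of all genes was 0.13 and 0.18. In the second tap the groups did not overlap for 8 of 11 Hoxa members, all higher than in orthotopic tumours, and in the first tap for 1 of 11, where 18.8% and 13.6% of all genes were higher without overlap.

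First tap 2 stood apart from the other ascites libraries. Its 11 Hoxa members had 108 reads in all, against 1317 to 2841 in the other 5 ascites libraries, and its leading member per kilobase was Hoxb4, at 7.67 CPM. Its macrophage markers summed to 5490 CPM, against 864 to 3070 CPM in the other 5, and the 6 line genes had a median of 27.8% of their orthotopic mean, against 101% to 135%. Macrophage markers summed to 202 to 304 CPM in orthotopic tumours and 5.46 CPM in the line, and their part in the Hoxb4 level was not tested.

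Between the second and the first tap 0 of 35 Hox genes passed by edgeR or by DESeq2, where 0% and 0.00443% of all genes did, and 0 were under an unadjusted p of 0.05, where 0.64% of all genes were. The smallest p was that of Hoxb9, with 0.266, 0 and 0 CPM in the second tap, against 0.164, 0.0378 and 1.19 CPM in the first (-2.27 ± 1.83, adjusted p = 1). The median over 35 was 0.22, and -0.04 over all genes.

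Against the cultured line both taps together had more Hoxb4 and Hoxb3 reads, without passing. Hoxb4 ran from 0.602 to 7.67 CPM over the 6 ascites libraries, with 675 reads in all, against 1 read in the line (6.92 ± 2.16, adjusted p = 0.0786). The ratio of its mean level to the line's was 158 in the second tap, or 103 without second tap 1. In the first tap that ratio was 125, or 43.1 without first tap 2. For all libraries of each tap, the counting intervals, for the line's 1 read alone, were 28.3 to 6240 and 22.4 to 4950. Hoxb3, with 246 reads in ascites and none in the line, was at least 17.5-fold higher, but 52.9% of its exon bases overlap the opposite strand. By edgeR 0 of 35 passed, where 6.2% of all genes did, 2 were under an unadjusted p of 0.05, where 22.7% were, and DESeq2 called 3 of 33, Hoxb3, Hoxb4 and Hoxb6, as higher, where it called 21.2% of all genes. Leaving out first tap 1 brought Hoxb4 past the threshold (7.17, adjusted p = 0.0474).

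Of the other members, Hoxa2, Hoxa5 and Hoxa6 ran from 0.184 to 12.7 CPM over the 17 libraries, with the line at 0.662, 2.15 and 1.56 CPM. Hoxb2, whose exons overlap the opposite strand over 27.3% of their bases, ran from 0 to 3.17 CPM, and Hoxc5, Hoxc9, Hoxc10 and Hoxc11 from 0 to 15.4 CPM. Hoxd3, Hoxd4 and Hoxd10 ran from 0 to 7.55 CPM, and Hoxd3 and Hoxd4 share 62.3% and 52.3% of their exon bases with other genes on the same strand, so that their counts are uncertain. The untested Hoxb13, Hoxd1, Hoxd12 and Hoxd13 were at most 0.424, 0.133, 0.210 and 0.210 CPM outside the 3 libraries with the most genes detected. Subcutaneous tumour 3 was the highest library for 8 of 39 members, healthy ovary for 8, subcutaneous tumour 2 for 5 and first tap 3 for 4, and the line for 0. Subcutaneous tumour 3 and first tap 3 are among those 3 libraries. Hoxb1, Hoxd1, Hoxd12 and Hoxd13 are among the 8 members highest in subcutaneous tumour 3.

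Genes that regulate the clusters or act with Hox proteins were read from lists beside them. Cdx2, which drives intestinal identity and posterior Hox genes in the embryo, had 444, 197 and 75.1 CPM in intestinal tumours, against 0, 0 and 0.0526 CPM in orthotopic tumours, where 2 reads were seen, and 140 CPM in healthy intestine. It passed as higher (adjusted p = 0.00149). Cdx1 rose with it (a mean of 114 CPM in intestinal tumours, against 0.0435 CPM in orthotopic tumours and 79.3 CPM in healthy intestine, 11.14 ± 1.83, adjusted p = 0.00276), which made 2 of the 3 tested members of the ParaHox and Cdx list, where 10.4% of all genes were higher.

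Of 9 Hox cofactors, 2 fell and 0 rose in intestinal beside orthotopic tumours, where 5.13% of all genes fell and 10.4% rose. They were Pbx3, a partner of Hox proteins on DNA (a mean of 19.0 CPM in intestinal tumours, against 84.3 CPM in orthotopic tumours and 12.8 CPM in healthy intestine, -2.15 ± 0.56), and Pknox2, a TALE homeodomain gene (3.66 CPM in intestinal tumours, against 19.2 CPM in orthotopic tumours and 3.85 CPM in healthy intestine, -2.39 ± 0.61). Pknox2 also fell in the second tap (-3.65 ± 0.64, adjusted p = 0.0363) and the first tap (-4.03 ± 0.65, adjusted p = 0.0242) beside orthotopic tumours, as 1 of 9, where 0.578% and 0.891% of all genes fell.

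Of 23 chromatin regulators of Hox clusters, 5 fell and 0 rose in intestinal beside orthotopic tumours, against the same 5.13% and 10.4% of all genes. Among them, the Polycomb gene Phc1 averaged 23.6 CPM in intestinal tumours, against 74.3 CPM in orthotopic tumours and 11.7 CPM in healthy intestine (-1.65 ± 0.38). Bmi1, also of Polycomb, averaged 60.6 CPM in intestinal tumours, against 156 CPM in orthotopic tumours and 52.9 CPM in healthy intestine (-1.37 ± 0.38). Men1, a partner of the Trithorax methyltransferases, averaged 26.4 CPM in intestinal tumours, against 72.1 CPM in orthotopic tumours and 24.7 CPM in healthy intestine (-1.45 ± 0.40). The intestinal tumour means of these 3 genes lay nearer to healthy intestine than to orthotopic tumours, and the part of host intestine was not tested. In both taps beside the cultured line 2 of 23 fell, where 2.36% of all genes did, the Polycomb genes Suz12 (83.0 CPM in ascites, against 207 CPM in the line, -1.32 ± 0.27, adjusted p = 0.0184) and Ezh2 (43.8 CPM in ascites, against 99.4 CPM in the line, -1.19 ± 0.31, adjusted p = 0.0442).

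Of 18 retinoic acid pathway genes, 1 rose in intestinal beside orthotopic tumours, the receptor Rxra (1.76 ± 0.51, adjusted p = 0.0372), and 1 fell, the receptor Rarg (-1.41 ± 0.40, adjusted p = 0.0334), where 10.4% of all genes rose and 5.13% fell. Rxra averaged 215 CPM in intestinal tumours, against 63.5 CPM in orthotopic tumours and 221 CPM in healthy intestine, and Rarg 20.8 CPM in intestinal tumours, against 55.4 CPM in orthotopic tumours and 9.24 CPM in healthy intestine. Of 19 other homeobox and T-box genes of position, 4 rose and 4 fell there, against the same shares of all genes. Tbx3, a limb and mammary regulator, averaged 329 CPM in intestinal tumours, against 2.70 CPM in orthotopic tumours and 452 CPM in healthy intestine. Emx2, a urogenital gene, averaged 0.838 CPM in intestinal tumours, against 125 CPM in orthotopic tumours and 0 in healthy intestine, and the part of host intestine in either difference was not tested. Beside orthotopic tumours 2 of 19 fell in each tap, among them Tbx2 (-2.57 ± 0.52 in the second and -2.97 ± 0.53 in the first), where 0.578% and 0.891% of all genes fell. Tbx2 was the 1 of 19 that rose in orthotopic tumours beside the line (22.2 CPM in orthotopic tumours, against 1.03 CPM in the line, 4.42 ± 0.93, adjusted p = 0.0284), where 2.37% of all genes rose.

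Of 6 tested genes flanking the clusters, 1 rose in intestinal tumours, Skap1, a T cell adaptor next to Hoxb1 (11.1 CPM in intestinal tumours, against 0.485 CPM in orthotopic tumours and 25.3 CPM in healthy intestine, 4.50 ± 0.96, adjusted p = 0.0105), where 10.4% of all genes rose. T cell markers summed to 69.5, 144 and 36.8 CPM in intestinal tumours, against 5.37, 2.29 and 2.11 CPM in orthotopic tumours, and their part in the Skap1 level was not tested. Of 17 noncoding RNAs of the clusters found in the table, 7 were tested and 0 passed in any of the 9 comparisons. Hotair, transcribed from the Hoxc cluster, stood between 0 and 0.491 CPM in every library.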

How the data were processed

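The authors deposited a table of raw read counts for each Ensembl gene identifier. The submitters' processing notes name HISAT, HISAT2, featureCounts and DESeq2, with versions not given in the sources used here, and both hg19 and mm39 as builds. Per the labels' protocols, libraries were directional (a modified NEBNext Ultra II procedure on Trizol-extracted total RNA). The table has 1 column under a subcutaneous heading that fits no label, and it was not used here. Samples were grouped by their labels.

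Counts were fitted in R 4.3.3 with edgeR 4.0.16 (trimmed-mean scaling, robust quasi-likelihood) in 1 model over 17 libraries and 8 groups with 9 residual degrees of freedom. Genes with over 0.5 CPM in at least 2 libraries, 22671 in all, were tested, with Benjamini-Hochberg adjustment over all of them and a threshold of 0.05. Each SE of a fold change was derived from the test, as the size of the log2 fold change over the square root of its quasi-likelihood F value. A group with 1 library was assumed to vary like the others. No label says which samples share an animal, so p-values measure only the spread between these samples. A group at 0 was bounded by 3 counts over its total, and intervals and bounds cover counting error only. DESeq2 1.42.0 (which leaves the adjusted p of some low-count genes empty, so that its counts are over fewer members), other scalings, no filter, left-out libraries and a replicate block were the alternatives. The fit was tested on simulated data. Exon lengths came from GENCODE on GRCm38, a build that may differ from the authors', so levels per kilobase are approximate.

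The members, lists and tests were chosen with earlier results of these data known. Members with a call in any comparison or at least 5 CPM in the line are given in every library, others by range, and those singled out after their values were seen are named as such. From each list up to 4 members by smallest p are given, and some genes, 1 Hox member among them, are not reported here and are left out of the figures. The 14 lists of cell type markers were used as summed levels, apart from the single genes named.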

Additional observations from a re-analysis of the deposited data

How the results depend on the processing

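In intestinal against orthotopic tumours, against 4 calls in the fit reported, there were 2 with no filter on low counts (Hoxb4 and Hoxb6), 11 with DESeq2, 0 within the libraries of prefix SM and 0 to 5 when single libraries were left out. Without filtering more genes were tested, and within the prefix fewer samples, and no other cause was tested. With DESeq2 the calls were 3 for subcutaneous, 1 for the first tap and 2 for the second tap against orthotopic tumours, 4 for orthotopic tumours and 3 for both taps against the cultured line, and 3 for orthotopic tumours against healthy ovary, each against 0. Leaving out single libraries gave 0 to 1 calls for both taps against the line and 0 in the other 7 comparisons. Of the 20 Hox fold changes recomputed under the alternatives, 0 turned their direction. They were those called or of smallest p in each comparison, which are the least likely to turn. The other fold changes were not recomputed. Other scalings, and a term for the library-name prefix chosen after seeing the data, kept the 4 calls in intestinal tumours and added none elsewhere. That term set S against all other prefixes. Both subcutaneous libraries, and no others, carry the prefix SCT, so for them prefix and site cannot be told apart. Leaving out the 3 libraries with the most genes detected, also chosen after seeing the data, kept the 4 calls. It added none outside the subcutaneous comparison. No label says whether the replicate numbers pair samples. Over 26 pairs of same-numbered libraries, deviations from the group means correlated at -0.549 to 0.419, with 7 over 0.1. With so few libraries a group, these values cannot tell whether same-numbered samples share an animal. With the replicate block there were 4 calls, the same genes, in intestinal tumours and 0 in the other comparisons. The number of Hox genes at 1 CPM or more, from 7 to 36 a library, moved by over 1.5 times in 7 libraries with a limit of 10 reads and in 4 with one of 0.5 CPM. At these depths the members near 1 CPM rest on few reads.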
